A study of Mus musculus with 3 samples.

Results

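The genes described are the 5 H3K9 methyltransferase genes Ehmt1, Ehmt2, Suv39h1, Suv39h2 and Setdb1, whose promoters were tiled on a mouse promoter array. They were chosen by name, as the probes outside the controls that carry one of these gene names, which gave 69 of 237203 probes and 5 of the 16164 promoters with at least 3 usable probes. The arrays measured chromatin immunoprecipitation (IP) in C2C12 cells, an immortalised mouse myoblast line that leaves the cell cycle reversibly when it is kept from attaching. Every sample came from C2C12 myoblasts arrested in G0 in 2% methyl cellulose, in which 1% formaldehyde fixed the chromatin before 0.125 M glycine stopped the reaction. In 2 samples the antibody recognised PRDM2 (replicates 1 and 2, here PRDM2 arrays 1 and 2) and in 1 sample it recognised H3K9me2, histone H3 dimethylated at lysine 9. IP DNA carried Cy5 and the input DNA of the same sample Cy3 on each array, dyes were not exchanged, and no control antibody enters the values. No group of proliferating cells was compared, and no label ties the PRDM2 replicates to separate cultures. Each p-value therefore rests on the spread between 2 arrays, which may be technical, and the fit shared that spread across all promoters or probes.

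Methylation of lysine 9 of histone H3 marks silent chromatin, and several enzymes of the SET domain family write it. The proteins of Ehmt1 (GLP) and Ehmt2 (G9a) form a dimer that places most of the mono- and dimethyl mark in euchromatin, the protein of Setdb1 trimethylates silenced genes and retroelements, and the SUV39H enzymes trimethylate pericentric heterochromatin. PRDM2 (RIZ) is a zinc finger protein of the PRDM family with a known H3K9 methyltransferase domain of its own, and the study searched for its target genes in arrested myoblasts. The question for the 5 genes was therefore whether the promoters of the enzymes that write the mark carried signal of PRDM2 and of the mark itself.

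Each value below is the log2 ratio of IP over input signal, set so that the median probe of an array is 0, and a promoter value is the mean over its probes. IP signal was weak on the PRDM2 arrays, where the median probe reached 1.47 and 1.39 times the negative control spots, against 6.44 times on the H3K9me2 array. Among the 69 member probes, the IP channel cleared background at 59, 57 and 62 probes on PRDM2 array 1, PRDM2 array 2 and the H3K9me2 array, and the input channel at 68, 68 and 67. No member spot was an outlier or saturated. Over all 16164 promoters the median of these means was 0.58 and 0.43 on the PRDM2 arrays and -0.23 on the H3K9me2 array. A typical promoter mean thus lay above the median probe for PRDM2 and below it for the mark. With the median over probes in place of the mean, the typical promoter was near 0, at 0.004, 0.005 and -0.03. The offset was therefore one of the means over probes, against which the calls below should be read.

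The sequences upstream of 4 of the genes show where array probes fell beside the start sites. They come from RefSeq on GRCm38.p6, run 5′ to 3′ on the strand of the gene up to its first base, and have the bases covered by array probes in capitals. The stretches lie at chr17:34898224-34898462 (plus strand, Ehmt2), chr3:95357203-95357452 (minus strand, Setdb1), chrX:8074761-8075010 (minus strand, Suv39h1) and chr2:3474987-3475236 (minus strand, Suv39h2).
Ehmt2: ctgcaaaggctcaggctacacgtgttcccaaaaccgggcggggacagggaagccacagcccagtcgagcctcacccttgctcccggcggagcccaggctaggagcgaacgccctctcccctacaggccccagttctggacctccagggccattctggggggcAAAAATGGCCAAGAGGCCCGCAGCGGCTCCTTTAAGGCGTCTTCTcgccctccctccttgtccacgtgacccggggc
Setdb1: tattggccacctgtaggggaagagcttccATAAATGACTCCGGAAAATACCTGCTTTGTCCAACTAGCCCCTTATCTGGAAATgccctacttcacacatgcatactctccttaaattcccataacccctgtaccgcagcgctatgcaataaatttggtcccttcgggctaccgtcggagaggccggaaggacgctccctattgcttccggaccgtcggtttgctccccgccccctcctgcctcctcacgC
Suv39h1: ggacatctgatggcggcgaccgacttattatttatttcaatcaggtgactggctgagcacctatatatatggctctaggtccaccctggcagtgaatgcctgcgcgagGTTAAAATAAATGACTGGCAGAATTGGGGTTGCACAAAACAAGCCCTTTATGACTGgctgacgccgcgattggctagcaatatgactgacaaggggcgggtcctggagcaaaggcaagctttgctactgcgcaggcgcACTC
Suv39h2: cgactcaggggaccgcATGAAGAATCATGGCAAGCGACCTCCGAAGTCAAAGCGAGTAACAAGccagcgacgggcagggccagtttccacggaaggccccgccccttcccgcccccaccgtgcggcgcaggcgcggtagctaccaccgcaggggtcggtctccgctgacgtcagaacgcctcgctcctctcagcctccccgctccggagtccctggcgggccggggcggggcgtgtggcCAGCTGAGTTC
Probes covered 45, 55, 60 and 58 bases of these stretches in Ehmt2, Setdb1, Suv39h1 and Suv39h2, so most bases of each stretch were not read by any probe.

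All 5 genes had CpG-rich upstream sequence. Over the 250 bases before a RefSeq start, Ehmt1 had 26 CpG dinucleotides, Ehmt2 had 18 and 36 at its 2 listed starts, which lie 496 bp apart, and Setdb1 had 13. Suv39h1 had 11 and 25 at its 2 listed starts, 399 bp apart, and Suv39h2 had 27, while the median of all 32851 such windows was 6. GC content was 69.2% for Ehmt1, 67.6% and 84.0% for Ehmt2, 54.4% for Setdb1, 51.6% and 67.2% for Suv39h1 and 69.6% for Suv39h2, against a median of 52.4%. The letters GGGCGG, counted on both strands, occurred in every one of these windows, from 1 match in Setdb1 and in both Suv39h1 windows to 4 at the downstream start of Ehmt2, and in 32.7% of all windows. The E-box letters CANNTG occurred in every window but the downstream one of Suv39h1, and in 66.2% of all windows. The letters TTTNGCGC and TATAAA occurred in none of them, and in 1.13% and 12.4% of all windows. These matches describe letters only and were not set against binding.

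PRDM2 signal was above the median probe at all 5 promoters on both arrays, and it was far from even among the genes. Ehmt1 and Ehmt2 were the highest, Setdb1 followed, and Suv39h1 and Suv39h2 were the lowest and closest to a typical promoter. H3K9me2 signal had another order: it was above the median probe at Setdb1, Suv39h1, Ehmt2 and Ehmt1, in a narrow range, and below it at Suv39h2. Ehmt1 and Ehmt2 also had the most GC-rich probes of the 5 genes, with mean GC content of 52.89% and 49.17%. It was 44.97% at Suv39h1, 43.89% at Suv39h2 and 42.85% at Setdb1, against a median of 43.90% over all promoters. Set against probes of like GC content (below), PRDM2 read 0.71, 0.70 and 0.67 at Ehmt1, Ehmt2 and Setdb1. On that scale Ehmt1 and Ehmt2 did not stand apart from Setdb1. With limma (Benjamini-Hochberg over all promoters, adjusted p under 0.05), PRDM2 was above the median probe at 5 of 5 member promoters, where 46.9% of all promoters were called in that direction and 1.08% in the other. The standard errors of this fit ran only from 0.198 at Setdb1 (SD 0.02) to 0.210 at Ehmt1 (SD 0.32). The p-values thus follow the means and hardly reflect the SDs printed beside them. The median of the 5 promoter means was 1.06, beside 0.50 over all promoters, whose quartiles were 0.15 and 0.91. The calls turned on where 0 was set: with the median promoter as 0, limma called 3 of 5 members above, and 2774 of all promoters above and 2100 below, and with no centring 2 of 5 members, and 1243 above and 6225 below, in place of 7586 and 174. With normexp background correction 0 of 5 members and 0 of all promoters passed (1485 above and 443 below at an unadjusted p under 0.05).

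**Figure D1:**
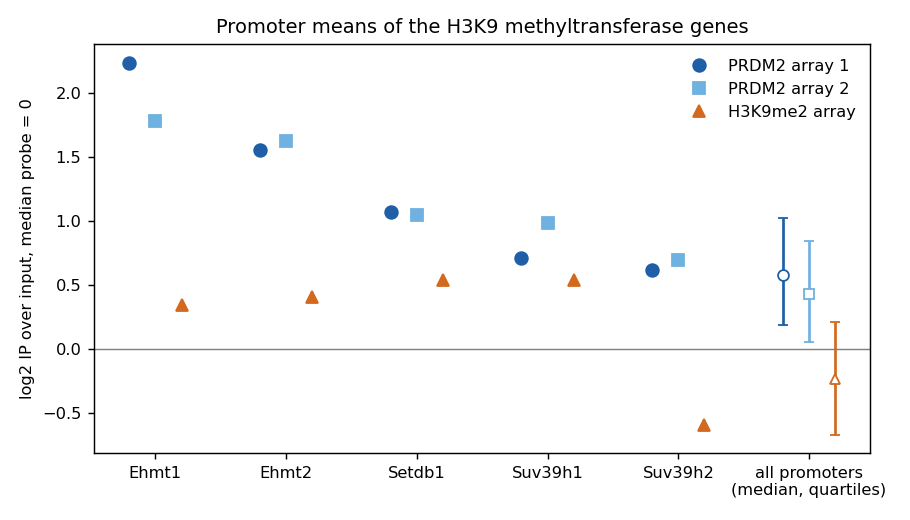
Promoter means of log2 IP over input (vertical axis, median probe = 0) of the 5 genes, with a filled point for each array, and open points with bars for the median and quartiles of all 16164 promoters. Both PRDM2 points of Ehmt1 (2.24 and 1.78), Ehmt2 (1.56 and 1.63) and Setdb1 (1.07 and 1.05) lie above the upper quartile of all promoters. At Suv39h1 the point of PRDM2 array 2 (0.98) does so too. The H3K9me2 point of Suv39h2 (-0.60) is the 1 value below 0.

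At the Ehmt1 promoter (10 probes, chr2:24740442-24743202 in the coordinates of the array design, genome build not given in the sources used here), PRDM2 had a ratio of 2.24 on array 1 and 1.78 on array 2, and the H3K9me2 ratio was 0.34. PRDM2 was high on both arrays, with array 1 the higher. The PRDM2 mean of 2.01 ± 0.32 (SD, n = 2) stood at rank 214 from the top of 16164 promoters (limma adjusted p = 7.3e-05), while the H3K9me2 value stood at the 81.1 percentile.

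At the Ehmt2 promoter (16 probes, chr17:34505032-34508371 in design coordinates), the PRDM2 ratio was 1.56 and 1.63, and the H3K9me2 ratio was 0.41. The replicates were close together here, and the mark was at much the same level as at Ehmt1. The PRDM2 mean was 1.59 ± 0.05 (SD, n = 2), at rank 690 (limma adjusted p = 0.000171), and the H3K9me2 value stood at the 83.5 percentile. Ehmt1 and Ehmt2 were not tested against each other, and their PRDM2 values did not overlap, since the lower Ehmt1 value of 1.78 was above the higher Ehmt2 value of 1.63.

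At Setdb1 only 4 probes covered the promoter (chr3:95442563-95443416 in design coordinates). The PRDM2 ratio was 1.07 and 1.05 and the H3K9me2 ratio was 0.54. PRDM2 and the mark were both above 0, and the PRDM2 means nearly coincided. That closeness includes a probe that read 0.47 and 1.14 for PRDM2 with IP spots not well above background, so the small SD is uncertain. With bright input spots alone, which leaves that probe out, the PRDM2 mean was 1.14 (limma adjusted p = 8.5e-05). The PRDM2 mean was 1.06 ± 0.02 (SD, n = 2), at rank 2902 (limma adjusted p = 0.00141), and H3K9me2 stood at the 87.9 percentile.

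At Suv39h1 (21 probes, chrX:7230119-7233888 in design coordinates), the PRDM2 ratio was 0.71 and 0.98 and the H3K9me2 ratio was 0.54. The values of both antibodies lay close to each other, with PRDM2 array 2 the highest. The PRDM2 mean was 0.85 ± 0.19 (SD, n = 2), at rank 4548 (limma adjusted p = 0.00551), and H3K9me2 stood at the 87.8 percentile. The X chromosome as a whole moved with the mark's value: its median probe stood at 0.57 on the H3K9me2 array and at 0.21 and 0.28 on the PRDM2 arrays, and set against its own chromosome the H3K9me2 value of Suv39h1 was -0.03.

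At Suv39h2 (18 probes, chr2:3390839-3394750 in design coordinates), the PRDM2 ratio was 0.61 and 0.69 and the H3K9me2 ratio was -0.60. Suv39h2 was the lowest of the 5 genes on every array, and the PRDM2 replicates were again close. The PRDM2 mean was 0.65 ± 0.06 (SD, n = 2), at rank 6448 (limma adjusted p = 0.0185), and H3K9me2 stood at the 28.7 percentile. The lowest H3K9me2 probe of this promoter, at -4.96, was not well above background in the IP channel, so its value is a bound, and the mean of the other 17 probes was -0.34. Only 15 of the 18 probes were well above background in that channel, so the mean of -0.34 still includes bounds, at -1.60 and -2.44.

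The promoter means rested on part of the probes in each gene, as their medians show. For Ehmt1 the median probe was at 1.90 and 1.25 on the PRDM2 arrays, and for Ehmt2 at 1.02 and 1.06, still above 0 and below the means. For Suv39h2 it was 0.01 and 0.00, for Setdb1 0.14 and 0.15, and for Suv39h1 0.07 and 0.42. At those 3 genes most of the tiled stretch was therefore near the median probe, and taken over the medians limma called Ehmt1 and Ehmt2 and no other member (2 of 5, against 5.69% of all promoters).

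The difference between antibodies was tested in 1 limma fit over all 3 arrays, in which the spread of the PRDM2 arrays stands in for that of the single H3K9me2 array. PRDM2 exceeded H3K9me2 at 3 of 5 members, where 41.1% of all promoters were called in that direction and 1.60% in the other. The difference was 1.67 at Ehmt1 (limma adjusted p = 0.0133), 1.25 at Suv39h2 (limma adjusted p = 0.0208) and 1.18 at Ehmt2 (limma adjusted p = 0.0238). At Ehmt1 and Ehmt2 both ratios were above 0 and PRDM2 was the larger, while at Suv39h2 the gap came with a mark below the median probe. At Setdb1 the difference was 0.52 (limma adjusted p = 0.213) and at Suv39h1 it was 0.31 (limma adjusted p = 0.453), neither past the threshold. The median difference over all promoters was 0.85, and the size and sign of these differences turned with the point taken as 0 and with the background correction. H3K9me2 alone, with 1 array and no test, was above the median probe at 4 of 5 members and at 36.0% of all promoters.

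Single probes located the PRDM2 signal. With limma per probe, 11 of 69 member probes were above the median probe, where 4.98% of all probes were called in that direction: 5 in Ehmt2, 3 in Ehmt1 and 1 each in Suv39h1, Suv39h2 and Setdb1. Their means ran from 2.98 to 5.52, with adjusted p from 0.0483 to 0.0494, all close to the threshold, and their H3K9me2 ratios ran from 0.00 to 3.71. None was called below (0.00381% of all probes were), and at an unadjusted p under 0.05 the counts were 23 above and 3 below. Both PRDM2 arrays were over 2 at 17 of the 69 probes, against 12.1% of all probes, and all 17 had an H3K9me2 ratio above 0, as did 95.7% of all probes so chosen. The calls per probe fell to 0, for the members and for the whole array, with normexp, the median promoter as 0, no centring, the GC trend removed, bright input spots alone or the authors' value table, so the probes below are described by their values.

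**Figure D2:**
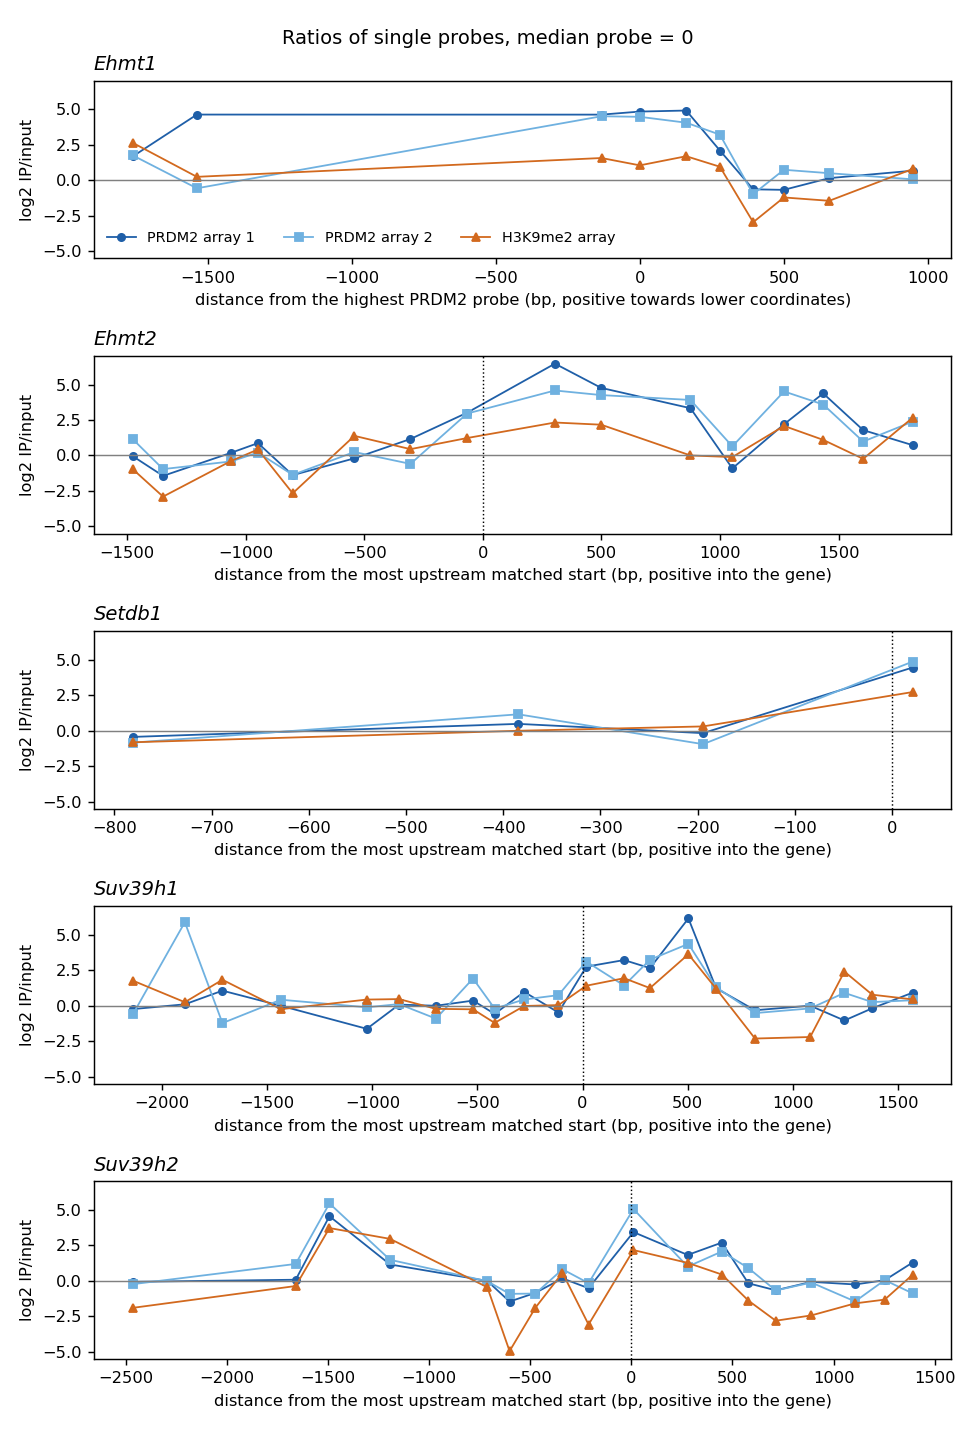
Log2 IP over input of each probe (vertical axis, median probe = 0) along the 5 promoters, against the distance in bp from the most upstream matched start or, for Ehmt1, from its highest probe; points stand for the 3 arrays. High PRDM2 probes sit together in Ehmt1 and just inside Ehmt2, around and inside the Suv39h1 start, and at the start of Setdb1, while Suv39h2 has high probes at +11 and +448 bp and another at -1492 bp.

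In Ehmt1 the signal was a block of 3 neighbouring probes with GC content of 71.1% to 82.2%. The highest, at chr2:24741396, read 4.85 and 4.48 for PRDM2 and 1.06 for H3K9me2. The mean of the block over both arrays was 4.58, at the 98.0 percentile of the best 3 neighbouring probes of all promoters, whose median was 1.91. Against probes of like GC content (classes kept 2 percentage points wide), the 3 probes stood at the 56.6 to 81.5 percentiles on PRDM2 array 1 and the 42.6 to 65.9 percentiles on array 2, so within their GC class they were not extreme. Past an intermediate probe (2.10 and 3.22 for PRDM2), the probe at chr2:24741000 read -0.63 and -0.97 for PRDM2 and -2.95 for H3K9me2, so the block had ended there. On the other side the next probe, at chr2:24742929, read 4.64 on PRDM2 array 1 and -0.56 on array 2 and was 1 of 2 member probes on which the arrays differed by over 4, as they did at 2.77% of all probes. No Ehmt1 probe lay inside the RefSeq windows around its start, so its distances from the start are not given.

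In Ehmt2 the signal began just upstream of the start and ran into the gene. The probe in capitals in the Ehmt2 sequence, centred at -66 bp from the first listed start, read 3.01 and 2.95 for PRDM2 and 1.23 for H3K9me2. The highest probe, at +304 bp and between the 2 listed starts, had a GC content of 84.4% and read 6.47, 4.58 and 2.32, at the 97.2 and 42.3 percentiles of probes in its narrow GC class on PRDM2 arrays 1 and 2. Past it, PRDM2 stayed high at +499 bp (4.76 and 4.25) and at +1435 bp (4.37 and 3.59). The profile had 1 gap, at +1052 bp, where a probe of 64.4% GC read -0.91 and 0.64 for PRDM2, at the 0.45 and 1.53 percentiles of probes of like GC content; its IP spot was not well above background on array 1, so that value is a bound.

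At Setdb1 a single probe carried the promoter mean. The probe spanning the start read 4.44 and 4.85 for PRDM2 and 2.71 for H3K9me2, and the other 3 probes read between -0.96 and 1.14 on the PRDM2 arrays. The 1.14, on PRDM2 array 2, came from a probe of 30% GC whose IP spot was not well above background on any array. Its input spot was not well above background on PRDM2 array 2 or the H3K9me2 array either, so its ratios are uncertain. The best 3 neighbouring probes averaged 1.63, at the 41.1 percentile of all promoters, so Setdb1 had no block of the kind seen in Ehmt1. The probe of the long capital stretch in the Setdb1 sequence, centred at -194.5 bp, read -0.18 and -0.96. The final capital C of that sequence belongs to the probe spanning the start.

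In Suv39h1 the high probes lay from the first listed start into the gene, on both sides of the second listed start. The highest, at +504 bp, read 6.14 and 4.35 for PRDM2 and 3.62 for H3K9me2, the 98.4, 89.0 and 98.9 percentiles of probes of like GC content. The probe at +321 bp, with 71.1% GC, read 2.64 and 3.23 for PRDM2, which was only the 17.8 and 25.3 percentiles of probes of like GC content. The best 3 neighbouring probes averaged 3.50, at the 86.2 percentile. The upstream side of the promoter was flat: the probe of the long capital stretch in the Suv39h1 sequence, at -114.5 bp, read -0.49 and 0.74. The 1 high value there, 5.88 on PRDM2 array 2 at -1892.5 bp, stood beside 0.09 on array 1. The final capitals ACTC of the sequence belong to the probe across the start, centred at +18 bp, which read 2.75 and 3.11.

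Suv39h2 had 3 probes over 2 on both PRDM2 arrays, in 2 separate places. The first, at +11 bp and across the start, read 3.43 and 5.05 for PRDM2 and 2.16 for H3K9me2, with an adjusted p of 0.055 in the limma fit. Further into the gene, the probe at +448 bp read 2.69, 2.06 and 0.44. It had 66.7% GC and stood low among probes of like GC content, at the 35.5, 12.7 and 16.3 percentiles. The highest, at -1492 bp, had 45.1% GC and no CpG, and read 4.54 and 5.44 for PRDM2 and 3.71 for H3K9me2, the 96.0, 99.6 and 99.8 percentiles of probes of like GC content. The best 3 neighbouring probes averaged 2.67, at the 70.1 percentile. The neighbour of the highest probe, at -1659 bp, read 0.07, 1.18 and -0.37. Both sequences are shown as on the array design (any CpG would be in capitals), because they are alike in base composition and differ in signal on all 3 arrays; they lie at chr2:3393725-3393775 and chr2:3393891-3393943 in design coordinates.
Suv39h2 high probe: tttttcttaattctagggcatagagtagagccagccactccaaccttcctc
Suv39h2 neighbour: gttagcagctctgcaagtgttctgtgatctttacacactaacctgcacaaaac
The RefSeq gene next upstream of Suv39h2 on GRCm38.p6 is Hspa14, with 13867 bp between the genes.

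Probes within 500 bp of the start were higher than those farther away in the 3 genes where both could be compared. In Ehmt2 the near probes averaged 3.85 and 2.80 for PRDM2 and the far ones 0.79 and 1.24. In Suv39h1 the averages were 1.42 and 1.45 near and 0.43 and 0.79 far, and in Suv39h2 they were 1.12 and 1.30 near and 0.36 and 0.39 far. The same step was present in the median of 7672 promoters with a matched start, at 0.96 and 0.93 near and 0.36 and 0.16 far. GC content moved with it, at 63.6% near and 44.3% far in Ehmt2, 49.8% and 43.0% in Suv39h1, and 52.3% and 39.7% in Suv39h2. Set against probes of like GC content, the near probes of Suv39h2 read -0.01 and 0.13 and the far ones 0.60 and 0.66, so the step turned in that gene. In Suv39h1 the step stayed on both arrays (0.57 and 0.60 near, 0.01 and 0.36 far). In Ehmt2 it stayed on array 1 (1.45 near and 0.41 far) and turned on array 2 (0.38 near and 0.85 far). The median of all promoters with a matched start turned too, at 0.16 and 0.11 near and 0.35 and 0.18 far. The bound of 500 bp placed the highest Suv39h1 probe, at +504 bp, among the far ones, and an Ehmt2 probe at +499 bp among the near ones. The far averages also include single high probes, at -1892.5 bp in Suv39h1 (5.88 on PRDM2 array 2 alone) and at -1492 bp in Suv39h2. The steps were not taken again with another bound or without these probes.

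GC content of the probe went with the ratio across the whole array and among the members. Across the 69 member probes, which share arrays and lie in 5 genes, Pearson's r between GC content and the PRDM2 mean was 0.69, and with H3K9me2 it was 0.35. Both PRDM2 arrays were over 2 at 13 of 17 member probes with 55% GC or more (57.0% of all such probes), at 4 of 12 with 45% to under 55% (12.0% of all) and at 0 of 40 below 45% (2.70% of all). The PRDM2 arrays correlated with r = 0.77 across member probes, and with r = 0.59 once each probe was set against those of like GC content. PRDM2 arrays 1 and 2 correlated with H3K9me2 at r = 0.66 and 0.64, and at r = 0.59 and 0.54 against probes of like GC content. On that scale PRDM2 array 1 thus went with H3K9me2 about as closely as with PRDM2 array 2. Over all probes on that scale, the PRDM2 arrays correlated with each other at r = 0.49, and with H3K9me2 at 0.51 and 0.42.

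**Figure D3:**
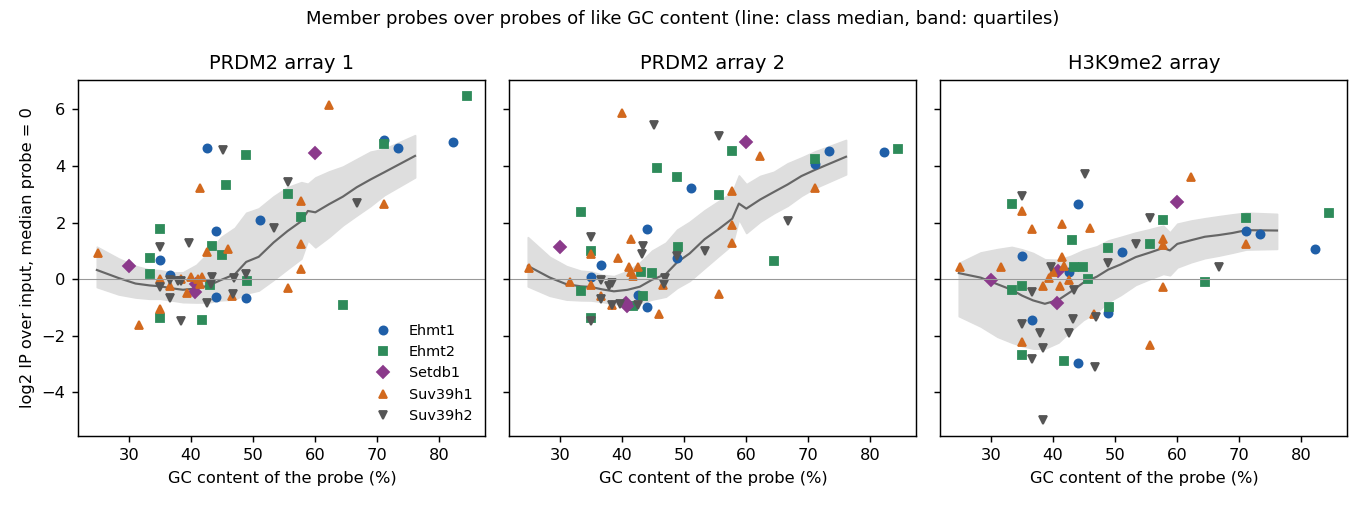
Log2 IP over input (vertical axis, median probe = 0) of the 69 member probes against their GC content in percent, 1 panel per array and 1 symbol per gene; the line and band are the median and quartiles of all probes by GC class. On the PRDM2 arrays the GC-rich member probes rise with the line but scatter around it. For example, probes of Setdb1 (60% GC) and Suv39h1 (62.2% GC) stand above the band on both PRDM2 arrays. Probes of Ehmt2 (64.4% GC) and Suv39h1 (55.6% GC) stand below it on both. Probes of Suv39h2 (45.1% GC) and Ehmt2 (45.7% GC) are among those of lower GC content above the band on both PRDM2 arrays.

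Set against probes of like GC content, PRDM2 was above at Ehmt1 by 0.71 ± 0.32 (limma adjusted p = 0.0199), at Ehmt2 by 0.70 ± 0.05 (limma adjusted p = 0.0193) and at Setdb1 by 0.67 ± 0.02 (limma adjusted p = 0.0249), each with SD and n = 2. That is 3 of 5 members, where 16.9% of all promoters were called above and 1.42% below. The median of all promoters on this scale was 0.24 for PRDM2 and -0.13 for H3K9me2. By PRDM2 mean, Ehmt1, Ehmt2 and Setdb1 stood at the 89.0, 88.6 and 87.3 percentiles. On this scale the 3 genes lay close together, and Setdb1 no longer stood below Ehmt1 and Ehmt2 by more than the spread of the Ehmt1 arrays. The Setdb1 value and its small SD include the dim probe of 30% GC, and this call was not repeated without it. The values at Suv39h2 (0.44 ± 0.06, limma adjusted p = 0.146) and Suv39h1 (0.30 ± 0.18, limma adjusted p = 0.341) did not pass. Of the 69 probes, 36 (52.2%) were above their GC class on both PRDM2 arrays and 28 (40.6%) on all 3 arrays, against 34.5% and 26.3% of all probes. H3K9me2 was 0.64 at Setdb1, 0.54 at Suv39h1, 0.17 at Ehmt2, -0.06 at Ehmt1 and -0.39 at Suv39h2 on this scale, and PRDM2 exceeded it at 0 of 5 members past the threshold (5.35% of all promoters). With GC classes kept narrow at both ends the same 3 members passed (limma adjusted p from 0.0247 to 0.0272, 16.3% of all promoters called above). The part of GC content in these ratios was not tested apart from this setting.

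Related genes, in lists of partners and other writers, readers and erasers, gave PRDM2 values that overlapped those of the members. Among partners and other writers, 6 of the 8 genes on the array had PRDM2 above the median probe and none below by the same limma test, with a median of 1.04. Dnmt3b, a DNA methyltransferase, read 1.66 ± 0.26, and Trim28, the corepressor that recruits the protein of Setdb1, read 1.50 ± 0.22. The lowest of this list was Atf7ip, whose product stabilises the same enzyme, at -0.16 and 0.43 on the PRDM2 arrays, 0.14 ± 0.42 (SD, n = 2), not past the threshold. Against probes of like GC content, where 16.9% of all promoters were called above, none of the 8 passed.

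Among readers, which bind methylated lysine 9, 2 of 5 genes were above and 1 below. Cbx3, which encodes HP1 gamma, read 1.19 ± 0.22 (SD, n = 2) and Cdyl2, a chromodomain gene, read 1.08 ± 0.04. Cbx5, which encodes HP1 alpha, read -0.61 and -0.55 (limma adjusted p = 0.0313), and its H3K9me2 ratio was -0.37. Against probes of like GC content Cbx3 and Cdyl2 passed (2 of 5) and Cbx5 did not (-0.42, limma adjusted p = 0.162). Among erasers, which remove the methyl groups, 6 of 8 genes were above and none below, with a median of 1.03. The lysine demethylase gene Kdm1a (Aof2 on the array) read 1.96 ± 0.01 and Phf2, a PHD finger gene of the demethylase family, read 1.58 ± 0.04. Kdm4a (Jmjd2a on the array) was the lowest at 0.21 ± 0.01, not past the threshold. Against probes of like GC content 2 of 8 passed, Kdm4b and Phf8 (named after their values were seen), and Kdm1a read -0.11. With 46.9% of all promoters called, the counts of these lists describe them and set none of them apart.

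**Figure D4:**
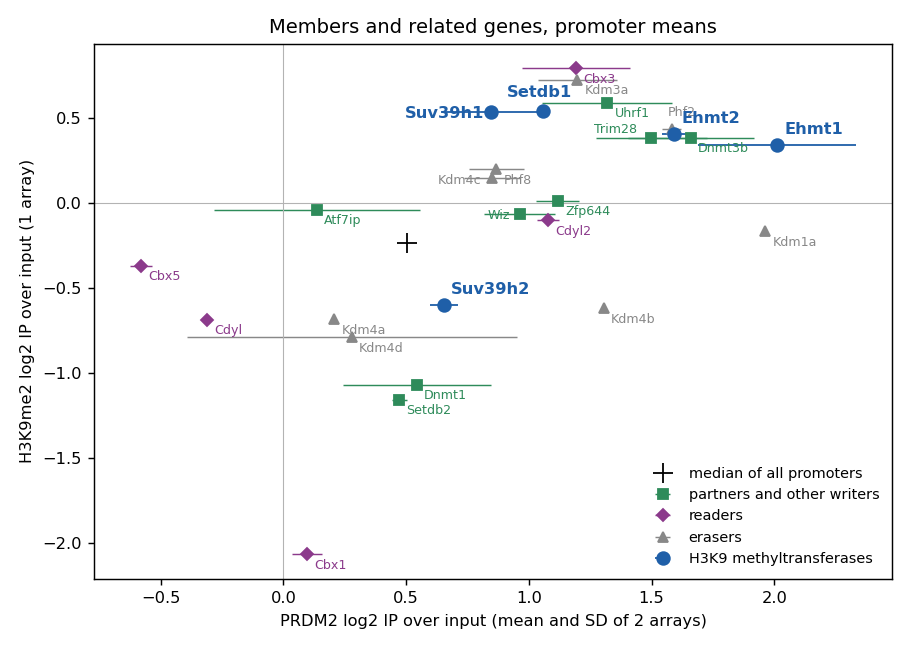
PRDM2 log2 IP over input (horizontal axis, mean and SD of 2 arrays) against H3K9me2 log2 IP over input (vertical axis, 1 array) for the 5 methyltransferase genes and 3 lists of related genes, with a cross at the median of all promoters. Ehmt1 has the highest PRDM2 mean shown (2.01), next to Kdm1a (1.96), and Cbx5 the lowest (-0.58).

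By Euclidean distance over the 3 arrays, the promoter nearest to Ehmt1 was Ube2o (distance 0.067), that nearest to Ehmt2 was Phf2 (0.035), and those nearest to Setdb1, Suv39h1 and Suv39h2 were Gli3 (0.046), Set (0.071) and Lrrtm3 (0.028). Within a distance of 0.25 there were 14 promoters around Ehmt1, 81 around Ehmt2, 70 around Suv39h1, 181 around Setdb1 and 352 around Suv39h2. The pattern of Ehmt1 thus had the fewest neighbours and that of Suv39h2 the most.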

How the data were processed

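Chromatin IP and input DNA of 3 samples had been hybridised to 2-colour Agilent arrays of mouse promoters. The deposited processed intensities came, per the file headers, from Agilent Feature Extraction, with detrending, subtraction of a background from negative controls, linear dye normalization and surrogates for dim spots; raw mean and local background intensities were deposited beside them. The deposited log10 ratios (red over green) served as a check. The authors' deposited value table held log2 ratios, a scale found by setting it against the scanner signals (r = 0.965, 0.940 and 0.972, medians 0.124, 0.103 and 0.278); its centring is not stated. Flags deposited in the scanner files (0 or 1, per the file headers) marked control, outlier, saturated and well-above-background spots.

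Log2 ratios of Cy5 (IP) over Cy3 (input) processed signal were taken, outlier spots (773, 107 and 218) left out and arrays centred on the median probe. The medians before centring were -0.91, -0.80 and -0.27. Promoters were the probes of 1 gene name, split at gaps over 10000 bp, with at least 3 probes. Tests used limma 3.58.1 (lmFit, eBayes, two-sided) in R 4.3.3 with data.table (version 1.17.8), over all promoters or probes, with Benjamini-Hochberg adjusted p under 0.05, and were tested on simulated data. Values against like GC content are residuals from the medians of GC classes 2 percentage points wide, with all probes of 72% or more in 1 top class (3120 probes, 3 of them in the members) and all under 28% in 1 bottom class. Narrow classes at both ends (at least 50 probes) were added after seeing the data. Alternatives were normexp (offset 50), loess, other points taken as 0, GC content, the median over probes, dim and outlier spots, chromosome and the value table. Tables and figures were made with pandas 2.3.3, numpy 2.4.6 and matplotlib 3.10.9 in Python 3.11.15.

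The text names the 5 members, their highest PRDM2 probe, their nearest promoter over the 3 arrays with predicted genes passed over (1 was), and in each of 3 lists (partners and other writers, readers, erasers; 9, 6 and 10 genes, of which 8, 5 and 8 had promoters) the 2 highest and the lowest by PRDM2 mean; further probes were chosen after their values were seen. Members and lists were chosen with earlier results of these data known. Start sites were placed by finding probe sequences inside RefSeq windows of GRCm38.p6, and exons and UTRs were not analysed here. The number of arrays limits the precision.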

Additional observations from a re-analysis of the deposited data

Results flagged for a closer look

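The differences between PRDM2 and H3K9me2 at 3 promoters passed the limma test of the difference itself, with the spread of the PRDM2 arrays standing in for that of the 1 H3K9me2 array: 1.67 at Ehmt1, 1.18 at Ehmt2 and 1.25 at Suv39h2, on the log2 scale. Of all promoters 41.1% were called in the same direction, and the median difference over all promoters was 0.85. The 3 calls were lost with normexp (where Ehmt2 and Suv39h2 turned, to -0.26 and -0.27), loess, the median promoter as 0, no centring, the GC trend removed (with either set of GC classes) and the median over probes.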

How the results depend on the processing

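PRDM2 above the median probe was called at 5 of 5 promoters, and at 0 with normexp, 3 with loess, 3 with the median promoter as 0, 2 with no centring, 3 with the GC trend removed (3 also with narrow GC classes) and 2 with the median over probes. The PRDM2 values that no longer passed were, with normexp, Ehmt1 0.95, Ehmt2 0.58, Suv39h1 0.36, Suv39h2 0.0787 and Setdb1 0.43; with loess, Suv39h2 0.27 and Setdb1 0.15; with the median promoter as 0, Suv39h1 0.34 and Suv39h2 0.15; with no centring, Suv39h1 -0.012 and Suv39h2 -0.20, which turned, and Setdb1 0.20; with the GC trend removed, Suv39h1 0.30 and Suv39h2 0.44, the same with narrow classes; and with the median over probes, Suv39h1 0.25, Suv39h2 0.0064 and Setdb1 0.15.

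PRDM2 minus H3K9me2 was called at 3 promoters, and at 0 under each of the same settings, where the share of all promoters called fell from 41.1% to 0% with normexp, 2.81% with loess, 0.736% with the median promoter as 0, 1.26% with no centring, 5.35% with the GC trend removed (4.81% with narrow classes) and 0% with the median over probes. In the order Ehmt1, Ehmt2, Suv39h1, Suv39h2 and Setdb1 it was 0.33, -0.26, -0.25, -0.27 and -0.39 with normexp, 0.58, 0.36, -0.30, 0.40 and -0.14 with loess, 0.94, 0.45, -0.43, 0.52 and -0.22 with the median promoter as 0, and 1.09, 0.60, -0.27, 0.67 and -0.0674 with no centring. It was 0.77, 0.53, -0.24, 0.84 and 0.0303 with the GC trend removed, 0.73, 0.48, -0.24, 0.84 and 0.0303 with narrow classes, and 0.70, 0.60, -0.20, 0.90 and 0.0075 with the median over probes. Ehmt2 also missed the threshold with the authors' value table (1.00). The H3K9me2 value turned at Suv39h2 with normexp (0.35), at Ehmt1 with the GC trend removed (-0.0582, or -0.0358 with narrow classes) and at Suv39h1 against its own chromosome (-0.0303). The cause of these changes was not tested.

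Probes called numbered 11, and 0 with normexp, the median promoter as 0, no centring, the GC trend removed (both sets of classes), bright input spots and the value table, settings under which 0 probes of the whole array were called above; adjusted p lay just under 0.05 in the fit as reported. Over all promoters 7586 were called above and 174 below, against 2774 and 2100 with the median promoter as 0, 1243 and 6225 with no centring, 3189 and 1171 with loess, 0 and 0 with normexp (1485 and 443 at an unadjusted p under 0.05) and 919 and 14 with the median over probes.

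Leaving out each PRDM2 array in turn gave values with no test, between 1.78 and 2.24 (Ehmt1), 1.56 and 1.63 (Ehmt2), 0.71 and 0.98 (Suv39h1), 0.61 and 0.69 (Suv39h2) and 1.05 and 1.07 (Setdb1). The differences ran from 1.44 to 1.90, 1.15 to 1.22, 0.17 to 0.45, 1.21 to 1.29 and 0.51 to 0.53 in the same order. No paired analysis was possible because the label of the H3K9me2 sample gives no replicate number that would pair it with a PRDM2 array. IP signal close to background on the PRDM2 arrays limits the low ratios.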
